A study of Mus musculus with 24 samples.

Results

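Retinas of mice without Nrl were compared with wild-type retinas at postnatal day 10 (P10), when photoreceptors are growing their outer segments and the eyes are still closed. The comparison holds 8 of the 24 arrays of the series, 4 labelled Nrl ko P10 and 4 labelled WT P10, which were taken by sample title. Total RNA of whole retina was measured on Affymetrix MG_U74Av2 oligonucleotide arrays, in both genotypes at P2, at P10 and at 2 months, with 4 arrays in each of 6 groups. Both genotypes are described as having the same mixed background of R1 and C57BL/6. No further allele, transgene or treatment is given in the labels. The deleted part of the gene, the sex of the mice and whether a replicate was 1 retina, 1 mouse or several mice are not stated. The tests below therefore rest on the spread among the 4 samples of a group, which may be technical. For the tests of single genes this spread was pooled over the 6 groups.

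Nrl encodes a leucine zipper transcription factor of the rod lineage, and with the cone-rod homeobox protein Crx it activates rod genes. Retinas that lack it are known to form photoreceptors that resemble short-wavelength cones in place of rods. In both photoreceptor types light turns an opsin, the opsin turns on transducin, transducin turns on a phosphodiesterase that breaks down cGMP, and cGMP-gated channels close. Rods and cones use different genes for most of these steps. In whole retina, fewer cells of a type and less RNA per cell cannot be told apart.

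The arrays held 12488 probe sets, and after 66 control probe sets were set aside, 12422 entered the tests. The values are RMA intensities on a linear scale, of which the P10 array medians lay between 65.7 and 71.3. Across probe sets the correlation between 2 arrays was 0.993 to 0.997 within a genotype and 0.986 to 0.992 between genotypes. Such values do not tell a low level from background, and on the P10 arrays the lowest 10% of probe sets lay under 11.1 to 12.2. The tissue carried the markers of a retina at P10. In wild type the Müller glia gene Rlbp1 averaged 503, the bipolar cell gene Pcp2 695, the amacrine cell gene Slc6a9 511 and the ganglion cell gene Thy1 363. In knockout retina Rlbp1, Pcp2, Slc6a9 and Thy1 averaged 537, 885, 539 and 357. These are bright members of their marker lists, and others were dim, such as Trpm1 of bipolar cells at 49.5 and Gad2 of amacrine cells at 16.8 in wild type.

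With limma and Benjamini-Hochberg adjustment, 605 probe sets (4.87%) passed an adjusted p of 0.05 at P10, of which 350 were higher (2.82%) and 255 lower (2.05%) in knockout retina. A gene was represented by its brightest probe set with a single symbol, which left 8251 genes. Of these, 287 were higher (3.48%) and 196 lower (2.38%), together 483 (5.85%). A called change of at least 2-fold was found in 33 genes that rose (0.4%) and 27 that fell (0.327%). In all 60 the 4 knockout values lay apart from the 4 wild-type values. Choosing called changes of that size leaves little room for overlap, so this is not a separate result. Over all genes the median log2 change was 0.02. The groups did not overlap in 936 genes (11.3%). Higher calls were 57.9% of the called probe sets, 50.1% after quantile normalisation (358 higher, 356 lower) and 69.1% without wild-type replicate 4 (492 higher, 220 lower).

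**Figure D1:**
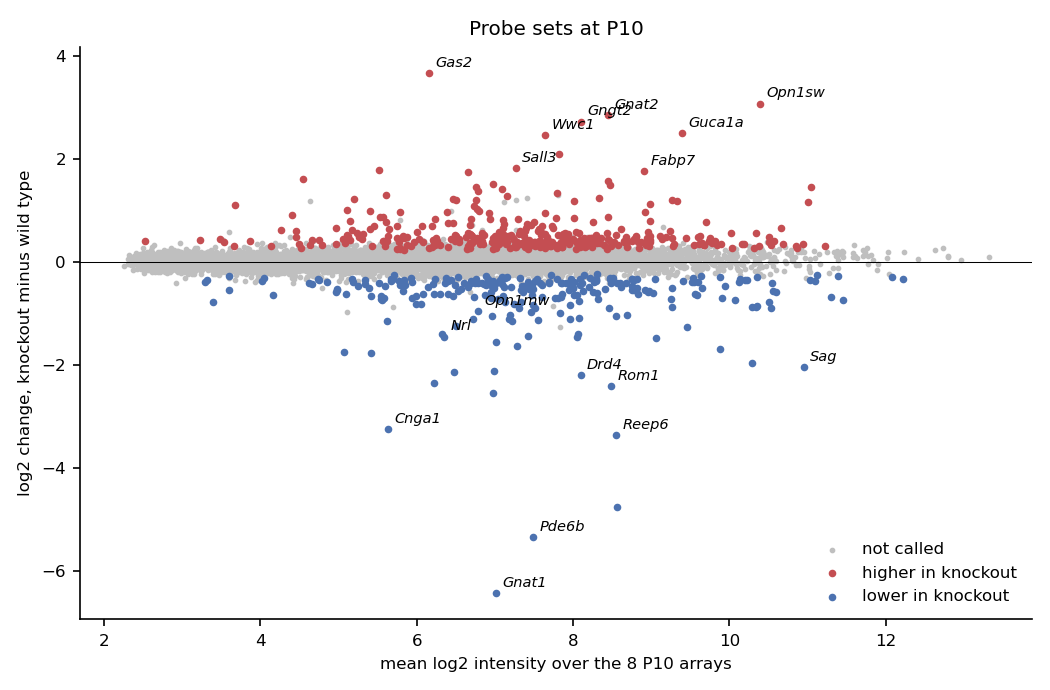
Log2 change from wild type to knockout at P10 (vertical axis) against the mean log2 intensity of the 8 P10 arrays (horizontal axis), with 1 point per probe set for all 12422. Called probe sets are coloured, 350 higher and 255 lower, and Gnat1 at -6.42 and Gas2 at 3.67 lie at the extremes among named genes.

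Nrl itself, the targeted gene, read 128, 123, 135 and 156 in wild-type replicates 1 to 4 and 44.6, 56.2, 46.7 and 51.5 in the knockout. All knockout arrays lay below all wild-type arrays. The log2 change of Nrl was -1.45 ± 0.11 (limma estimate ± standard error, adjusted p = 7.88e-11). The sources used here do not say if the probe set covers deleted sequence, so the residual signal checks the labels only as a difference between the groups.

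To show the genes at both ends of the response, 250 bases before the start site are printed for the 3 photoreceptor genes that fell most and the 3 that rose most among called members of the rod, cone and shared photoreceptor lists with a RefSeq promoter entry (14 of 21 had one). They are read 5′ to 3′ on the strand of the gene in assembly GRCm38.p6. Capitals mark the letters TAATCC, the core of sites bound by Crx, and TGCTGA, the core of sites bound by Nrl and other Maf proteins, searched on both strands (as GGATTA and TCAGCA on the opposite strand), and no matches of the motifs overlapped. The genes that fell were Pde6b at chr5:108388123-108388372 (plus strand), Cnga1 at chr5:72642753-72643002 (minus strand) and Rom1 at chr19:8929357-8929606 (minus strand).
Pde6b: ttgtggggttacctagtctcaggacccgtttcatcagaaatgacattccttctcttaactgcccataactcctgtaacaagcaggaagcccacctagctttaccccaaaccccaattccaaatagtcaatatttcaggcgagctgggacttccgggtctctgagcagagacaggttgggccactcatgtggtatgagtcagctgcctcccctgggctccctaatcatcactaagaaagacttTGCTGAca
Cnga1: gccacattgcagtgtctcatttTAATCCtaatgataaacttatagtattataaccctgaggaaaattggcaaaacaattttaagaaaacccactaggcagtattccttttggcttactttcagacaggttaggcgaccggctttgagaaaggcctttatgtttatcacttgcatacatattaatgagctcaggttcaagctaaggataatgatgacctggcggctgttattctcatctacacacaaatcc
Rom1: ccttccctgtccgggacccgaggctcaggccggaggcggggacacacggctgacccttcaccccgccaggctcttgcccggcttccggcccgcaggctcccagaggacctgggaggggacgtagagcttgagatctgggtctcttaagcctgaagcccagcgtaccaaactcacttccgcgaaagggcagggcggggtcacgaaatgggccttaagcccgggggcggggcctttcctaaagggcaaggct
The genes that rose were Opn1sw at chr6:29380514-29380763 (minus strand), Gnat2 at chr3:108092816-108093065 (plus strand) and Guca1a at chr17:47400607-47400856 (minus strand).
Opn1sw: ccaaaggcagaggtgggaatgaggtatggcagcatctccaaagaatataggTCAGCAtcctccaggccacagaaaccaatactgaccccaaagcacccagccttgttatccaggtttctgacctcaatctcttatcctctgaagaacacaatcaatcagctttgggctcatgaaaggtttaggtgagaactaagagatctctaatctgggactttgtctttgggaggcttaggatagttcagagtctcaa
Gnat2: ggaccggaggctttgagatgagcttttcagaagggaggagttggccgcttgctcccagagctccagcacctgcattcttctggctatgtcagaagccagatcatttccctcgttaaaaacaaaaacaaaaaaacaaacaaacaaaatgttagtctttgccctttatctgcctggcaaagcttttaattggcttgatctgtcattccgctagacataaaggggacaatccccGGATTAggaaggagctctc
Guca1a: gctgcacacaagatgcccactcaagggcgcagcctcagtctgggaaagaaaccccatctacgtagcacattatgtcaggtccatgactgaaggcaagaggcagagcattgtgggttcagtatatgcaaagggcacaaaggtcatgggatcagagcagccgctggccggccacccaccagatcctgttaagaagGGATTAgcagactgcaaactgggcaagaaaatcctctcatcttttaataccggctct
TGCTGA letters stood 8 to 3 bases before the start of Pde6b and 199 to 194 before that of Opn1sw, and TAATCC letters 19 to 14 bases before the start of Gnat2, 57 to 52 before that of Guca1a and 228 to 223 before that of Cnga1. The Rom1 window held neither set of letters. Of the 15 genes with the largest falls, 12 had a promoter entry, of which 6 held TAATCC and 3 TGCTGA. Of the 15 with the largest rises, 11 had an entry, of which 3 held TAATCC and 5 TGCTGA. A gene was counted when any of its promoter entries matched. Among all 32536 windows of the same length, each counted singly, 6.25% held TAATCC and 16.1% held TGCTGA. Counts by gene and shares by window are in unlike units, and a gene with several entries has more chances to match. A match of letters is a description and not a binding site.

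Rod genes were low in knockout retina. Of 10 measured genes of the rod list 8 fell and 0 rose, with a median log2 change of -1.64, where 2.38% of all genes fell and their median was 0.02. The list includes Rcvrn, which cones also use, and Gnb1, which is also expressed outside photoreceptors. Gnat1, the alpha subunit of rod transducin, read 1699, 1216, 1356 and 725 in the wild type and 23.1, 10.8, 12.9 and 11.7 in the knockout. Wild-type replicate 4 was the lowest wild-type array, and the knockout arrays lay near the lowest 10% of all probe sets. The log2 change of Gnat1 was -6.42 ± 0.35 (adjusted p = 8.38e-14), a size that is uncertain because the knockout level cannot be told from background. Pde6b, the beta subunit of the rod phosphodiesterase, read 1182, 1197, 1055 and 1158 in the wild type and 39.5, 24.9, 24.9 and 25.97 in the knockout, with a log2 change of -5.34 ± 0.13. The knockout values of 3 arrays lay under the 25th percentile of all probe sets (26.4 to 29.2), so the size of this fall is uncertain. Knockout replicate 1 was the highest of its group, and all 4 knockout arrays were far below the wild type. A dimmer Pde6b probe set fell from 268 ± 47.0 to 61.1 ± 2.36 (SD, n = 4; log2 change -2.12), less than the brightest one.

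Pde6a, the alpha subunit, read 168, 156, 186 and 116 in the wild type and 58.7, 84.4, 66.2 and 80.3 in the knockout (log2 change -1.11 ± 0.16, adjusted p = 1.5e-05). Pde6g, the inhibitory gamma subunit, read 3979, 3502, 3517 and 3479 in the wild type and 2218, 2065, 2213 and 2184 in the knockout (log2 change -0.74 ± 0.08, adjusted p = 2.58e-07). For both subunits the groups did not overlap and Pde6g kept 0.6 of its wild-type level. Cnga1, the alpha subunit of the rod cGMP-gated channel, read 146, 187, 149 and 134 in the wild type and 15.4, 16.7, 17.3 and 15.4 in the knockout (log2 change -3.24 ± 0.10, adjusted p = 2.03e-19). Its knockout level was low enough that background cannot be told apart from signal.

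Reep6, an endoplasmic reticulum protein of rods, read 1332, 1163, 1114 and 1217 in the wild type and 118, 122, 118 and 111 in the knockout, a fall of 10.3-fold. Sag, rod arrestin, which ends signalling by light-activated opsin, read 3579, 4148, 4470.4 and 3952 in the wild type and 956, 1092, 959.8 and 930.0 in the knockout. Knockout retina therefore still carried Sag at a level above the 75th percentile of all probe sets, which was 154 to 163. Its log2 change was -2.03 ± 0.17 (adjusted p = 1.2e-09). Rcvrn, recoverin, a calcium sensor of rods and cones, read 1076, 1233, 1126 and 928 in the wild type and 396, 529.9, 452 and 456 in the knockout (log2 change -1.25 ± 0.11, adjusted p = 3.53e-09). In all 3 genes each knockout array lay below each wild-type array.

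The other 2 rod list members did not pass. Esrrb, a nuclear receptor of rods, averaged 43.6 ± 5.99 in the wild type and 33.9 ± 6.17 in the knockout (adjusted p = 0.078). It passed when replicate 4 of either genotype was left out, with 0.0166 for the knockout array and 0.0457 for the wild-type array. Gnb1, the beta subunit of rod transducin, is also expressed outside photoreceptors, and its probe sets went apart. The brightest averaged 168 ± 34.0 and 221 ± 19.5 (adjusted p = 0.158). A second read 187, 177, 196 and 187 in the wild type and 36.2, 44.1, 41.2 and 51.1 in the knockout, with no overlap (log2 change -2.12 ± 0.12, adjusted p = 1.7e-13), and a further one averaged 95.1 ± 27.2 and 141 ± 14.9 (adjusted p = 0.0559).

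**Figure D2:**
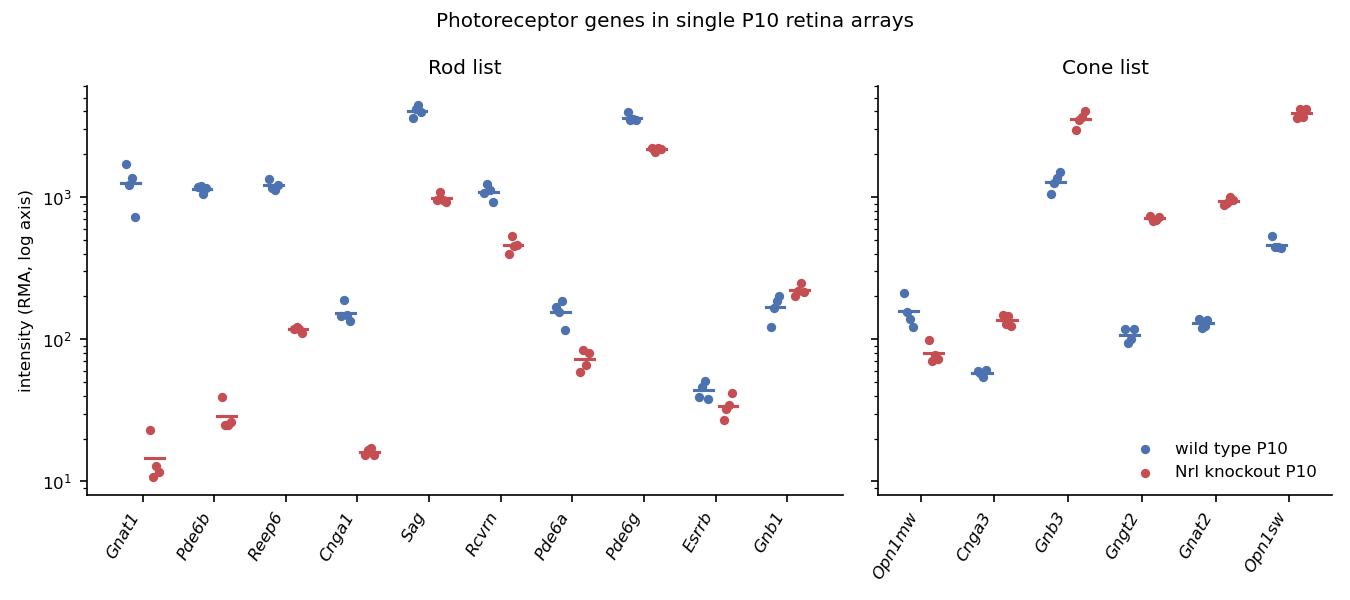
Intensity on a log axis in each P10 array for rod and cone genes, with 1 point per array, a line at the group mean, wild type and knockout side by side and n = 4 in each. The knockout points lie below the wild-type points for 8 rod genes, overlap them for Esrrb and lie above them for Gnb1 by its brightest probe set. They lie above them for 5 cone genes and below for Opn1mw (157 ± 39.0 in wild type, 79.8 ± 13.3 in knockout).

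Cone genes were high, and 1 cone opsin was low. Of 6 measured genes of the cone list 5 rose and 1 fell, with a median log2 change of 2.09, where 3.48% of all genes rose. Opn1sw, the short-wavelength cone opsin, read 529, 443, 445 and 438 in the wild type and 3623, 4173, 3665 and 4148 in the knockout. Wild-type replicate 1 was the highest of its group and was still far below the knockout arrays. Opn1sw rose by 3.07 ± 0.12 on the log2 scale (adjusted p = 7.96e-17), 8.43-fold. Opn1mw, the medium-wavelength cone opsin, read 211, 156, 138 and 121 in the wild type and 99.3, 69.9, 77.0 and 73.1 in the knockout. Its groups did not overlap, and its log2 change was -0.96 ± 0.17 (adjusted p = 0.000285), so the opsins of cones went opposite ways at this age.

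All measured subunits of cone transducin rose. Gnat2, its alpha subunit, read 138, 121, 124 and 137 in the wild type and 881, 903, 997 and 959 in the knockout, 7.2-fold higher. Gnb3, the beta subunit, read 1046, 1248, 1354 and 1489 in the wild type and 2968, 3461, 3653 and 4021 in the knockout, 2.75-fold higher. Gngt2, the gamma subunit, read 118, 94.6, 100.1 and 118 in the wild type and 733, 683, 694 and 725 in the knockout, 6.62-fold higher. For each subunit every knockout array lay above every wild-type array, and Gnb3, which bipolar cells also express, had the smallest rise of the 3. Their log2 changes were 2.85 ± 0.13, 1.46 ± 0.15 and 2.73 ± 0.08. Cnga3, the alpha subunit of the cone cGMP-gated channel, read 59.4, 57.9, 54.4 and 60.7 in the wild type and 147, 127, 146 and 123 in the knockout (log2 change 1.22 ± 0.11, adjusted p = 1.85e-09). This rise was 2.33-fold, with no overlap.

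Of 16 measured genes used by both photoreceptor types 6 fell, 1 rose and 9 did not pass, with a median log2 change of -0.28, and 13 of the 16 estimates were below 0. The share that passed was 43.8%, against 5.85% of all genes. The one that rose was Guca1a, which activates guanylate cyclase when calcium is low, and it read 226, 275, 315 and 328 in the wild type and 1381, 1719, 1825 and 1536 in the knockout. Every knockout array was above every wild-type array, and the log2 change was 2.50 ± 0.19 (adjusted p = 1.29e-10). The guanylate cyclase gene Gucy2e, by contrast, averaged 85.9 ± 4.44 and 71.5 ± 2.30 without overlap and did not pass (adjusted p = 0.0693). It passed as lower in 7 of the alternatives tried (0.00477 to 0.0482), among them that without wild-type replicate 4 (0.044).

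Among structural genes of the outer segment, Rom1, a disc rim protein, read 809, 815, 825 and 858 in the wild type and 169.7, 145, 144 and 166 in the knockout, 5.31-fold lower. Its second probe set fell alike, from 169 ± 23.4 to 33.1 ± 2.38 (log2 changes -2.41 and -2.34). Prph2, the partner of Rom1 at the disc rim, read 416, 194, 465 and 181 in the wild type and 198, 144, 159 and 144 in the knockout. Wild-type replicates 1 and 3 were higher and replicates 2 and 4 lay within reach of the knockout, so the groups overlapped and the change of -0.84 ± 0.33 did not pass (adjusted p = 0.193). It passed in 5 of the alternatives tried. A replicate block gave an adjusted p of 0.00466 within age, 0.0149 over all ages and 0.000271 in only the P10 arrays. Those fits use the replicate numbers, which were not taken to pair samples. Without a block, array weights gave 0.0221 and a fit to only the 8 P10 arrays 0.0384. Prom1, prominin 1, a protein of the growing disc edge, read 1889, 1574, 1709 and 1829 in the wild type and 991, 962, 912 and 967 in the knockout (log2 change -0.87 ± 0.08, adjusted p = 8.59e-09). Abca4, which moves retinoids across disc membranes, read 897, 817, 960.2 and 875 in the wild type and 268, 331, 347 and 345 in the knockout (log2 change -1.46 ± 0.09, adjusted p = 2.39e-12). Neither gene's groups overlapped.

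Pdc, phosducin, which binds the beta and gamma subunits of transducin, read 2456, 2512, 2362 and 2593 in the wild type and 674, 607, 663 and 602 in the knockout (log2 change -1.96 ± 0.10, adjusted p = 3.37e-14). A dimmer probe set of Pdc averaged 257 ± 19.4 and 233 ± 52.4 and did not pass (adjusted p = 0.836). Unc119, a trafficking factor for transducin, averaged 3187 ± 207 and 1996 ± 23.9 (log2 change -0.67 ± 0.07, adjusted p = 1.15e-07). Tulp1, a transport protein of the photoreceptor, averaged 2972 ± 169 and 2455 ± 223 (adjusted p = 0.0291), a call that ended when 1 of knockout replicates 2 and 4 was left out (adjusted p = 0.133 and 0.132) or 1 of wild-type replicates 2, 3 and 4 (0.0668, 0.0525 and 0.0945). Gnb5 and Rgs9, members of the complex that switches transducin off, averaged 385 ± 28.9 and 311 ± 4.83, and 44.1 ± 6.197 and 37.0 ± 1.58, and did not pass (adjusted p = 0.0723 and 0.19). Gnb5 passed as lower in 4 of the alternatives tried (0.0177 to 0.0268). Atp1b2, Mak, Rpgr, Aanat and Pde6d did not pass either, with log2 changes between -0.29 and 0.15.

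Of 18 measured transcription factors of photoreceptors 5 rose and 5 fell, with a median log2 change of 0.08. Together this was 55.6% of the list, against 5.85% of all genes. Crx, the homeobox partner of Nrl, read 2045, 1859.9, 1726 and 1941 in the wild type and 1334, 1306, 1188 and 1236 in the knockout. The groups did not overlap, and the log2 change of Crx was -0.58 ± 0.08 (adjusted p = 6.26e-06), a 1.49-fold fall. Nrl, Pias3, Neurod1 and Ahr were the other genes that fell. Pias3, a SUMO ligase that acts with Crx, averaged 353 ± 34.7 and 269 ± 28.5 (log2 change -0.39 ± 0.09, adjusted p = 0.00543). Neurod1, a basic helix-loop-helix factor of photoreceptors, read 210.0, 169, 195 and 221 in the wild type and 139.8, 165, 143 and 152 in the knockout (adjusted p = 0.0117). Its call ended when knockout replicate 1 (0.0512) or wild-type replicate 4 (0.0503) was left out. Ahr, the aryl hydrocarbon receptor, had knockout values of 23.6, 33.2, 24.4 and 24.9 against 36.8 to 39.96 in the wild type (adjusted p = 0.03). Leaving out any 1 of knockout replicates 1, 3 and 4 or wild-type replicates 1, 2 and 3 ended this call (adjusted p = 0.112, 0.0952, 0.0925, 0.0723, 0.0916 and 0.0671).

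Among the factors that rose, Sall3, a zinc finger gene of the cone lineage, read 71.8, 85.8, 87.9 and 83.7 in the wild type and 274, 286, 347 and 262 in the knockout (log2 change 1.82 ± 0.09, adjusted p = 2.43e-15). Rxrg, a retinoid X receptor of cones, read 67.6, 68.9, 66.4 and 71.2 in the wild type and 179, 182, 175 and 174 in the knockout (log2 change 1.37 ± 0.06, adjusted p = 2.43e-15). In both the knockout arrays stood well apart, and each Rxrg group held close together. Rax, a homeobox gene of retinal progenitors and photoreceptors, rose 1.5-fold, from 406 ± 49.97 to 608 ± 28.2. Prdm1, a repressor of bipolar fate in photoreceptor precursors, averaged 125 ± 21.7 and 177 ± 11.95 (log2 change 0.52 ± 0.11, adjusted p = 0.00232), with wild-type replicate 4 at 157 nearest to the lowest knockout array at 167. Rb1, the retinoblastoma gene, rose by its brightest probe set from 23.2 ± 1.65 to 31.3 ± 2.75 (adjusted p = 0.00176), and its other probe set, near 10, did not pass (adjusted p = 0.788).

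The other 8 did not pass. They were Meis2, Rora, Mef2c, Mef2d, Thrb, Onecut1, Nr1d1 and Tbx2. Thrb, the thyroid hormone receptor of medium-wavelength cones, averaged 70.5 ± 9.96 and 68.6 ± 6.43 (log2 change -0.04 ± 0.11). Meis2 averaged 55.4 ± 3.38 and 69.4 ± 4.90 without overlap (adjusted p = 0.0503), and passed as higher in 11 of the alternatives tried (0.0103 to 0.0495). Mef2d averaged 1453 ± 41.4 and 1754 ± 303 (adjusted p = 0.113; 0.0255 without knockout replicate 3).

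**Figure D3:**
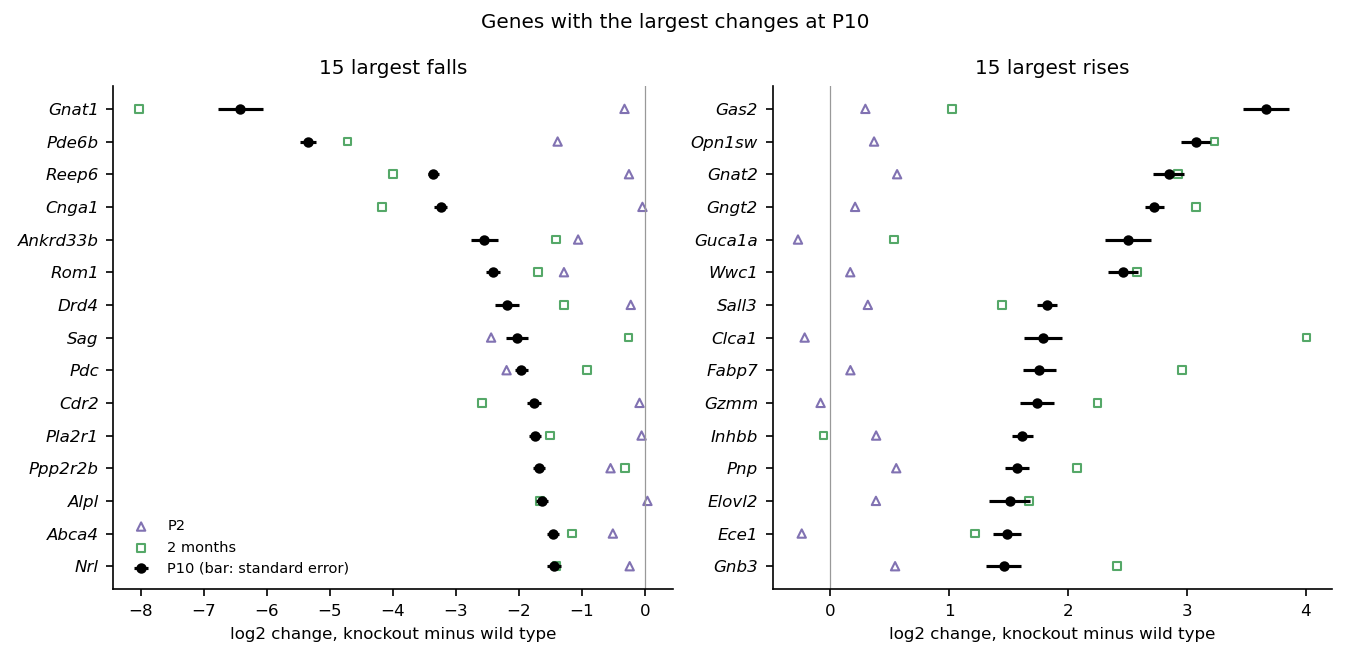
Log2 change from wild type to knockout at P10 with its standard error (horizontal axis) for the 15 largest rises and the 15 largest falls among called genes whose groups did not overlap. The falls run from -6.42 for Gnat1 to -1.45 for Nrl and the rises from 1.46 for Gnb3 to 3.67 for Gas2.

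Several of the largest changes lay outside phototransduction. The largest rise of all was Gas2, which encodes an actin-associated protein and read 19.5, 24.8, 20.6 and 16.4 in the wild type and 259, 396, 194 and 214 in the knockout. The wild-type level was low and knockout replicate 2 was the highest array. The largest rises and falls were taken among genes without overlap, so lack of overlap was fixed by that choice. Gas2 rose by 3.67 ± 0.20 on the log2 scale (adjusted p = 4.55e-14), and a probe set that read 5.04 ± 0.56 and 6.63 ± 0.56 rose by 0.40. Wwc1, a scaffold of the Hippo pathway also called Kibra, read 88.9, 71.3, 91.7 and 89.8 in the wild type and 508, 394, 549 and 439.7 in the knockout. It rose 5.52-fold, and 2.31-fold by its other probe set (log2 changes 2.46 and 1.21). Clca1, a gene of the calcium-activated chloride channel regulator family, averaged 24.8 ± 2.84 and 85.9 ± 11.1, and its dimmer probe set, at 11.8 ± 0.92 and 11.1 ± 1.56, did not pass.

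Further genes were among the 15 largest rises. Fabp7, a fatty acid-binding protein of neural progenitors and glia, read 231, 223, 262 and 348 in the wild type and 879, 964, 796 and 914 in the knockout (log2 change 1.76 ± 0.14). Elovl2, which lengthens polyunsaturated fatty acids, read 59.0, 75.5, 81.3 and 84.6 in the wild type and 194, 295, 136 and 258 in the knockout (log2 change 1.51 ± 0.17). Pnp, purine nucleoside phosphorylase, rose 2.97-fold, from 203 ± 10.3 to 608 ± 86.0. The knockout values of Elovl2 spread over more than 2-fold. Also among them were Inhbb, an activin and inhibin subunit, from 13.4 ± 1.13 to 41.0 ± 2.05, Ece1, the endothelin-converting enzyme, from 214 ± 26.4 to 604 ± 111, and Gzmm, granzyme M, from 55.2 ± 7.11 to 185 ± 22.9. Their log2 changes were 1.62 ± 0.09, 1.49 ± 0.12 and 1.74 ± 0.14.

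The largest falls outside phototransduction included Drd4, a dopamine receptor of photoreceptors, which read 849.8, 742, 632 and 293 in the wild type and 131, 128, 129 and 124 in the knockout. Wild-type replicate 4 was the lowest wild-type array here, as for Gnat1, and was still above the knockout. The log2 change of Drd4 was -2.19 ± 0.19 (adjusted p = 1.5e-09). Ankrd33b, an ankyrin repeat gene, read 378, 285, 301 and 267 in the wild type and 32.3, 67.8, 77.6 and 43.5 in the knockout (log2 change -2.55 ± 0.21, adjusted p = 4.96e-10). Ppp2r2b, a regulatory subunit of protein phosphatase 2A, averaged 1702 ± 210.3 and 531 ± 64.4. Alpl, the tissue-nonspecific alkaline phosphatase, averaged 274 ± 29.3 and 88.4 ± 8.09. Cdr2, an antigen of paraneoplastic cerebellar degeneration, and Pla2r1, a phospholipase A2 receptor, fell 3.38-fold and 3.35-fold, from 78.3 ± 7.42 to 23.2 ± 2.01 and from 61.8 ± 6.05 to 18.5 ± 2.34. Their knockout values lay under the 25th percentile, so the size of both falls is uncertain. For the 6 genes of this paragraph lack of overlap between knockout and wild-type arrays was a condition of their choice.

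Markers of other cell types of the retina were read against the 5.85% of all genes that passed. The share was 16.7% in the Müller glia and bipolar lists, 8.33% in the ganglion cell list and 6.25% in the list of glial reaction. Of 12 measured Müller glia genes Apoe, a lipid carrier, rose from 1377 ± 43.8 to 3079 ± 145 and Aqp4, a water channel of glial endfeet, fell from 61.9 ± 12.4 to 36.8 ± 4.16. The list median was 0.01, and a dim probe set of Apoe, at 11.3 ± 1.85 and 12.1 ± 1.61, did not pass. Of 6 bipolar genes Pcp2 rose, from 695 ± 20.3 to 885 ± 26.5 (adjusted p = 0.00675, and 0.0585 after quantile normalisation). Of 16 amacrine and horizontal cell genes 0 passed, of 12 ganglion cell genes Nefh, a neurofilament subunit, fell from 124 ± 14.3 to 93.2 ± 4.22 and 0 rose, and of 13 genes of the photoreceptor synapse and ribbon 0 passed. Of 16 genes of glial reaction and injury Socs3, an inhibitor of cytokine signalling, rose from 80.6 ± 10.1 to 132 ± 12.8 (log2 change 0.71 ± 0.09, adjusted p = 4.04e-06) and its other probe set by 0.77. The rest of that list, which includes Serpina3n at 95.5 ± 6.35 and 117 ± 4.07 (adjusted p = 0.124; 0.03 in a fit to only the P10 arrays), did not pass.

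Markers of neighbouring tissues bear on the dissection. Of 10 measured genes of the pigment epithelium 3 fell, Pmel by 0.41, Ttr by 0.40 and Rgr by 0.35 on the log2 scale, and Ctsd, a lysosomal protease found in many cells, rose by 0.33. The share of this list that passed was above the 5.85% of all genes and was the largest of any list outside the photoreceptor lists. Rgr lost its call without any 1 of the knockout replicates or of wild-type replicates 1, 3 and 4 (adjusted p between 0.0525 and 0.25). The summed intensity of the list was 1445 to 1506 in wild type and 1548 to 1689 in knockout arrays. Ctsd, its brightest member, averaged 821 in wild type and 1030 in knockout, so the sum mostly follows Ctsd. The median of the 10 log2 changes was -0.06. The list's median log2 level per array was 0.25 lower in the knockout (exact two-sided permutation p = 0.0571, adjusted over 9 such measures 0.257). Of 11 lens genes 0 passed, with a median log2 change of 0.63, and the summed intensity was 829 to 1337 in wild-type and 933 to 3352 in knockout arrays. With a replicate block in only the P10 arrays Cryaa, Cryba1, Crygb, Crygc, Crygd and Cryge passed as higher (adjusted p between 0.000185 and 0.0144). In that fit 473 of all 12422 probe sets passed as higher, against 350 in the main fit. Knockout replicate 2 had the highest lens level, a list median of 7.55 on the log2 scale against 5.61 to 6.11 in wild type. Lens and pigment epithelium levels differed between arrays, and their part in the results was not tested. Of 6 blood, 18 microglia and 17 vascular genes only Rgs5, a pericyte gene, passed, lower at 69.6 ± 8.70 and 47.1 ± 6.87. This was 5.88% of the vascular list, against 5.85% of all genes. Xist, expressed in female cells, averaged 94.3 ± 21.0 in wild type and 213 ± 52.8 in knockout, with no overlap (adjusted p = 0.738 by limma, and 5.43e-05 in a fit to only the P10 arrays). The exact permutation p of its log2 level was 0.0286, the smallest possible, and 0.257 adjusted over 9 such measures. The mean log2 level of Y-linked genes was 4.22, 5.15, 5.13 and 4.15 in knockout replicates 1 to 4 and 4.93 to 5.24 in wild type (exact permutation p = 0.257). Knockout replicates 1 and 4 stood apart. Without both, in an alternative added after these values were seen that leaves 2 knockout arrays, 339 probe sets passed (183 higher, 156 lower). Among the named genes Ahr, Aqp1, Cyp26a1, Ier2, Nefh, Neurod1, Pcp2, Pias3, Pkm, Prdm1, Rgr, Smad7, Ttr and Tulp1 then did not pass (adjusted p between 0.0636 and 0.435). The sex of the mice was not given, and its part in the results was not tested.

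In the pathway lists the share that passed was 4.17% for the cell cycle, 4.35% for BMP, 7.69% for Notch and 5.56% for cell death, against 5.85% of all genes. It was 10.5% for the list of retinoic acid and thyroid hormone. Of 24 cell cycle genes Ccna2, cyclin A2, fell from 227 ± 7.56 to 167 ± 8.92 and 0 rose. Of 13 Notch pathway genes Mfng, a glycosyltransferase that modifies Notch, rose from 154 ± 20.8 to 237 ± 15.3 (adjusted p = 7.24e-05). Of 23 BMP pathway genes Smad7, an inhibitory Smad, rose from 54.5 ± 5.07 to 71.6 ± 2.61, and of 34 Wnt genes 0 passed. Of 19 retinoic acid and thyroid hormone genes Rxrg and Cyp26a1, a retinoic acid hydroxylase, rose. Cyp26a1, at 20.9 ± 1.22 and 25.3 ± 0.94 (adjusted p = 0.046), lost its call without any 1 of the knockout replicates or of wild-type replicates 1, 2 and 3 (adjusted p between 0.074 and 0.155). Of 18 cell death genes Gadd45a, a stress-induced growth arrest gene, fell from 214 ± 20.4 to 99.4 ± 7.25, 1 of the 27 genes that fell by 2-fold.

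In the list of glycolysis and energy, 2 of 21 fell and 1 rose, a share of 14.3% against 5.85% of all genes. Hk2, a hexokinase that photoreceptors use, rose from 114 ± 10.4 to 167 ± 6.18 (adjusted p = 0.00168; its dim second probe set did not pass). Aldoc, aldolase C, fell from 519.9 ± 48.3 to 365 ± 87.8, with overlap between the groups, and Pkm, pyruvate kinase, from 4811 ± 283 to 3921 ± 207. The adjusted p of Pkm was 0.0159, and 0.0629, 0.0594 and 0.0546 when knockout replicate 1, knockout replicate 3 or wild-type replicate 1 was left out. Of 16 immediate early genes Jund, a subunit of AP-1, rose from 1743 ± 71.7 to 2232 ± 152 and Ier2 from 75.1 ± 10.3 to 102 ± 4.90. Together they were 12.5% of that list. Ier2 (adjusted p = 0.0223) did not pass with 1 of knockout replicates 2 and 4 or of wild-type replicates 1, 2 and 3 left out (adjusted p between 0.0523 and 0.103). Of 14 circadian and 21 heat shock genes 0 passed. Hspa1b, a heat shock protein (adjusted p = 0.0507), passed as lower in 10 of the alternatives tried (0.0019 to 0.0479). After quantile normalisation Hspa1b, Hspa1a, Hsp90aa1 and Pdia4 of this list passed as lower (0.0315, 0.0234, 0.0324 and 0.0232). Lower calls grew over all 12422 probe sets under that setting, to 356 from 255.

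**Figure D4:**
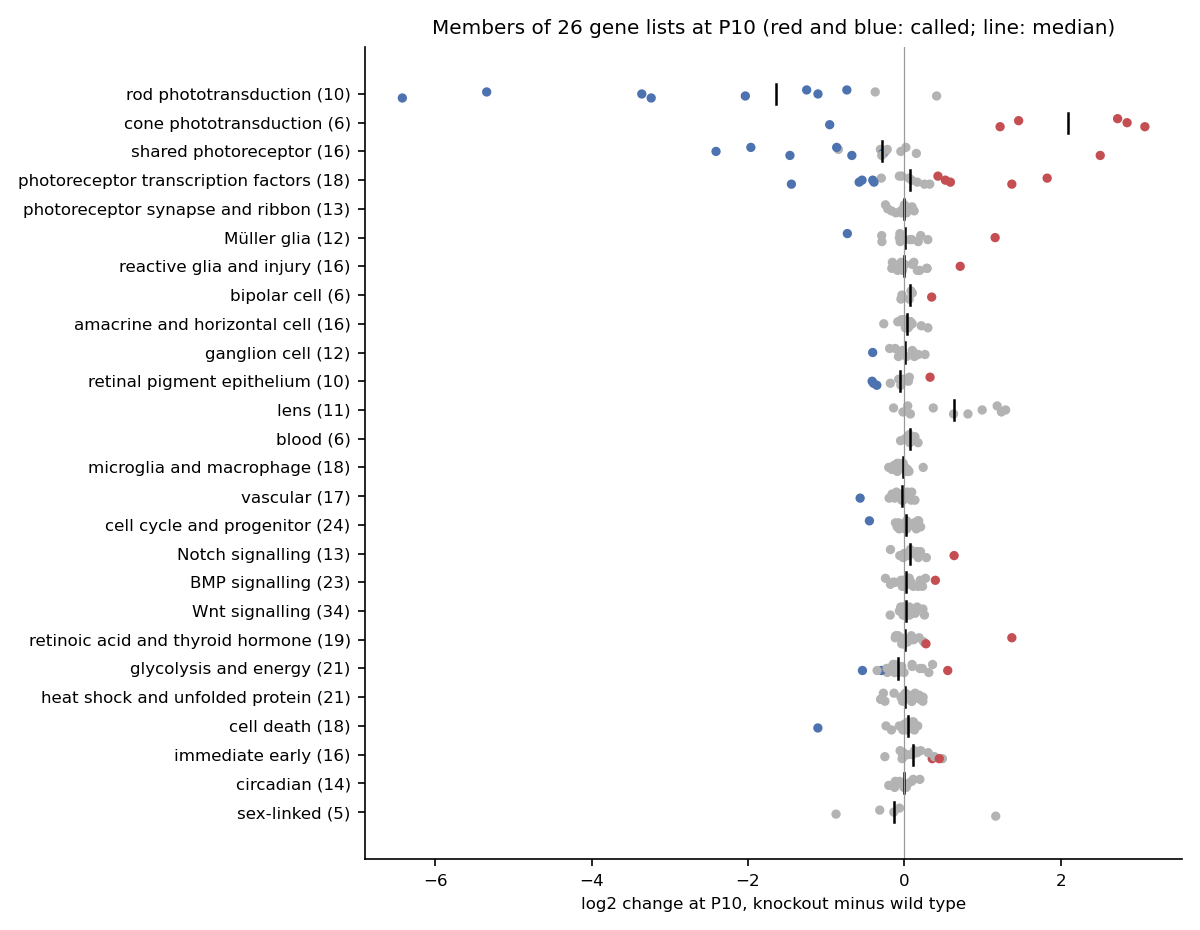
Log2 change from wild type to knockout at P10 (horizontal axis) for each measured member of each gene list, with 1 point per gene, called members in red (higher) or blue (lower) and a line at the list median. The rod list has a median of -1.64, the cone list 2.09 and the lens list 0.63, and the median of all genes is 0.02.

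At P10 the effect of the knockout differed from that at P2 in 224 of 8251 genes (2.71%). At both ages the groups were different arrays. Opn1sw averaged 320.4 ± 87.2 in wild type and 403 ± 26.3 in knockout at P2, and the effect at P10 was larger by 2.70 ± 0.17 on the log2 scale (adjusted p = 1.21e-11). For Wwc1, whose means at P2 were 118 ± 8.70 and 134 ± 20.6, it was larger by 2.29 ± 0.18. Gngt2 and Rxrg had differences of 2.52 ± 0.12 and 1.38 ± 0.09. Reep6, at 82.7 ± 10.2 and 69.4 ± 7.16 at P2, had a difference of effects of -3.11 ± 0.13 (adjusted p = 5.49e-16), and Alpl had a difference of -1.67 ± 0.13. Sag, in contrast, was already low at P2 (245 ± 59.8 and 45.5 ± 12.7), and its effect was not shown to differ from P2 to P10 (difference 0.41 ± 0.25, adjusted p = 0.643).

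The effect at 2 months differed from that at P10 in 231 genes (2.8%). Some P10 differences were not seen at 2 months. Inhbb, higher in the knockout at P10, averaged 11.2 ± 0.79 in wild type and 10.8 ± 0.18 in knockout at 2 months (difference of effects -1.67 ± 0.13, adjusted p = 7.27e-10). Tnfsf9, the ligand of the costimulatory receptor 4-1BB, averaged 65.8 ± 5.24 and 181 ± 27.2 at P10 and 63.6 ± 1.59 and 65.3 ± 1.35 at 2 months (difference -1.42 ± 0.12). Mtnr1a, a melatonin receptor, averaged 24.1 ± 1.89 and 56.4 ± 4.22 at P10 and 24.6 ± 0.42 and 25.8 ± 1.71 at 2 months (difference -1.16 ± 0.12). The wild-type P10 values of Inhbb and Mtnr1a lay under the 25th percentile of the P10 arrays (26.4 to 29.2). Their means at 2 months were also under 26.4, so the size of both differences is uncertain. Inhbb, Tnfsf9 and Mtnr1a were higher in all 4 knockout arrays at P10, and none of them passed the test at 2 months (adjusted p = 0.934, 0.964 and 0.883).

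Other effects turned, shrank or grew. Myo7a, myosin VIIa, read 328, 324, 361 and 326 in the wild type and 189.5, 196, 159 and 207 in the knockout at P10, and averaged 213 ± 13.5 and 267 ± 24.4 at 2 months, so that it fell at P10 and rose at 2 months (difference 1.16 ± 0.11, adjusted p = 8.38e-08). Otud7b, a deubiquitinase, did the same, with log2 changes of -0.63 ± 0.08 and 0.41. Ppp2r2b averaged 1569 ± 153 and 1267 ± 129.9 at 2 months, so that its log2 change was -1.68 at P10 and -0.31 at 2 months (adjusted p = 0.0604 at 2 months), a difference of effects of 1.37 ± 0.14. Aqp1, a water channel, averaged 67.6 ± 9.52 and 49.6 ± 4.94 at P10 (adjusted p = 0.0194). This call ended when knockout replicate 1 (0.108) or wild-type replicate 1, 2 or 3 (0.0751, 0.0926 and 0.0671) was left out. At 2 months it averaged 397 ± 49.6 and 48.9 ± 3.69 (difference -2.58 ± 0.16). Clca1 averaged 27.8 ± 3.36 and 447 ± 57.6 at 2 months (difference 2.22 ± 0.22).

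Sag, Guca1a, Opn1mw and Gas2, singled out after their values were seen, also had a different effect at P10 than at 2 months. Sag averaged 5322 ± 614 in wild type and 4453 ± 663 in knockout at 2 months, and the effect differed by 1.77 ± 0.25 (adjusted p = 2.3e-05). Guca1a averaged 3475 ± 547 and 5018 ± 608, with a difference of -1.97 ± 0.27. Opn1mw, lower in the knockout at P10, averaged 454 ± 47.4 and 630.3 ± 171 at 2 months and did not pass there (adjusted p = 0.139), with a difference of 1.39 ± 0.24 (adjusted p = 0.000418). Gas2 averaged 25.5 ± 2.35 and 53.2 ± 15.2, with a difference of -2.64 ± 0.28. Levels at different ages cannot be told apart from a batch that went with age, while each effect is a difference within an age.

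**Figure D5:**
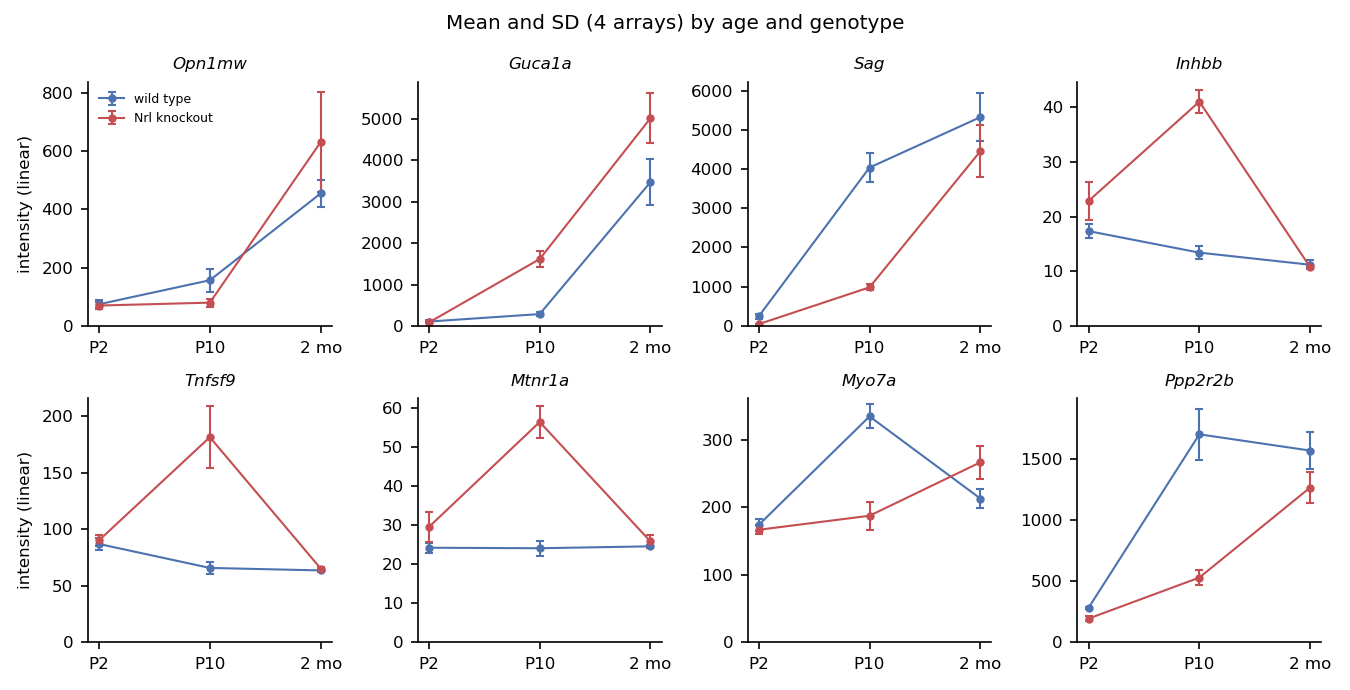
Mean intensity on a linear axis with SD (n = 4) at P2, P10 and 2 months for Opn1mw, Guca1a, Sag, Inhbb, Tnfsf9, Mtnr1a, Myo7a and Ppp2r2b, in wild type (blue) and knockout (red). The genotypes stand apart at P10 in all of these genes, and for Inhbb, Tnfsf9 and Mtnr1a their means at 2 months nearly meet.

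Genes near the targeted locus were counted apart from the rest. Within 20 Mb of Nrl 16 of 173 genes passed (9.25%), 9 higher and 7 lower, against 465 of 8063 elsewhere (5.77%). Pnp, Rb1 and Rgr lie in that window, as do Slc7a8 at a log2 change of -0.71 and Parp2 at 0.55, which were singled out after their values were seen. Whether sequence linked to the targeted allele plays a part in their values was not tested.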

How the data were processed

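The authors deposited linear-scale intensities, and the submitters' processing notes name RMA. Its version and the set of arrays normalised jointly are not given in the sources used here. Log2 intensity was fitted in R 4.3.3 with limma 3.58.1 (lmFit, eBayes) as 6 group means over the 24 arrays, and the contrasts were knockout against wild type at each age and differences of that effect between ages. P-values were two-sided and Benjamini-Hochberg adjusted over 12422 probe sets. A gene passed, or was called, at an adjusted p under 0.05. Of the probe sets 10833 had 1 symbol, 396 several and 1193 none in the platform annotation, and only those with 1 were named. Positions and promoters are from RefSeq, GRCm38.p6. Per-array measures were compared by exact two-sided permutation tests, which with 4 arrays a group reach no p below 0.0286.

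Named were Nrl, the 15 largest rises and falls among called genes whose groups did not overlap, all measured members of the 4 photoreceptor lists, up to 6 members with the largest change of each other list, and 4 genes in each direction for each difference between ages. The 26 lists hold 510 genes, of which 388 were measured. The comparison, the lists and the rule were chosen with earlier results of these data known. Same-numbered knockout and wild-type arrays at P10 had correlations of 0.333, 0.047, -0.163 and -0.037 in their deviations from the group means, so the numbers were not taken to pair samples. Alternatives were quantile normalisation, median centring, a filter on dim probe sets (mean over 32 in at least 1 group), a pseudocount of 16, trended and robust moderation, array weights, only the P10 arrays, a replicate block, each P10 array left out, knockout replicates 1 and 4 left out (added after seeing the data), the mean over a gene's probe sets and an adjusted p under 0.01. The steps were tested on simulated data. Python 3.11.15 and matplotlib 3.10.9 made the figures.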

Additional observations from a re-analysis of the deposited data

Results flagged for a closer look

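In some groups of 4 arrays, 1 array lay far from the other 3 by Dixon's test, which chance alone gives in about 1 of 20 groups. This was so in 16 of 418 groups tested. Among photoreceptor genes these were Opn1sw in wild-type replicate 1 (528.7), Pde6b in knockout replicate 1 (39.5), Pde6g in wild-type replicate 1 (3979), Mef2c in knockout replicate 4 (25.4), Ahr in knockout replicate 2 (33.2) and Prdm1 in wild-type replicate 4 (157). In the lens list Cryba1 and Crygd were high in wild-type replicate 1 (104 and 268). Other genes with 1 such array were Wwc1 in wild-type replicate 2 (71.3), Aqp4 in wild-type replicate 4 (43.5), Ncoa1 in wild-type replicate 4 (119), Myo7a and Per2 in wild-type replicate 3 (361 and 7.80), Per1 in knockout replicate 3 (90.4) and Snap25 in knockout replicate 1 (1284). The circadian list median was high in 1 knockout array, at 6.50 on the log2 scale. The wild-type replicate 1 value of Opn1sw lay on the side of the knockout, and that of Pde6g lay away from it.

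The effect at P10 differed from that at P2 by a test of the difference in 224 genes, of which 8 were named for their small adjusted p. Their differences, P10 minus P2 in log2 units, were -3.96 for Pde6b, -3.20 for Cnga1, -3.11 for Reep6, -1.67 for Alpl, 1.38 for Rxrg, 2.29 for Wwc1, 2.52 for Gngt2 and 2.70 for Opn1sw. The effect at 2 months differed from that at P10 in 231 genes, of which 12 are named here. Their differences, 2 months minus P10, were -2.64 for Gas2, -2.58 for Aqp1, -1.97 for Guca1a, -1.67 for Inhbb, -1.42 for Tnfsf9, -1.16 for Mtnr1a, 1.04 for Otud7b, 1.16 for Myo7a, 1.37 for Ppp2r2b, 1.39 for Opn1mw, 1.77 for Sag and 2.22 for Clca1.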

How the results depend on the processing

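Calls at P10 numbered 605 probe sets (350 higher). They numbered 1401 with array weights (949 higher, 452 lower), 922 (577 higher) with a replicate block spanning the 3 ages, and 400 (229 higher) at an adjusted p under 0.01. With the replicate block within age there were 671, and with the block in only the P10 arrays 788. Leaving out 1 P10 array gave 468 to 712 calls, the fewest without wild-type replicate 3 and the most without wild-type replicate 4. The effect at P10 differed from that at P2 in 276 probe sets, 486 with array weights and 432 with the block over all ages. The effect at 2 months differed from that at P10 in 295, and in 475 with array weights. Of list members 51 were called, and 86 with array weights. The difference between genotypes in the pigment epithelium list's median level per array, -0.25, was -0.27 with median centring and lay between -0.31 and -0.22 with 1 array left out, the lowest without wild-type replicate 4 (exact permutation p = 0.0286 for the first and for that array). Without knockout replicates 1 and 4, chosen after seeing the data, 339 passed (183 higher, 156 lower), and 178 differed from P2. With the block in only the P10 arrays, the lens genes Cryaa, Cryba1, Crygb, Crygc, Crygd and Cryge passed as higher (adjusted p between 0.000185 and 0.0144); among named genes it added 26 calls and ended 2, within age 4 and 3, and over all ages 11 and 0. Of 4127 values of named genes under an alternative, 64 lost the call, 120 gained it and 0 reversed. The cause of these shifts was not tested. Intensities in the lowest 25% of an array cannot be told from background, so the size of a change with a group at that level is uncertain. Among such genes were Gnat1, Cnga1, Pde6b, Pla2r1, Cdr2, Gas2, Clca1, Inhbb, Mtnr1a, Smpdl3a, Rb1, Cyp26a1 and Rgr. Of 122 called genes with other probe sets, 38 had another called in the same direction, and 84 had none called.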

Other observations

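Of the 60 genes that changed by 2-fold at P10, 22 fell outside the rule for named genes, and all are given here after their values were seen. Of these 9 fell and 13 rose. Epha8, an ephrin receptor, rose from 83.5 ± 7.96 in wild type to 222 ± 6.88 in knockout (SD, n = 4), and its log2 change of 1.42 at P10 stood beside 0.30 at 2 months. Cltb, clathrin light chain B, rose from 139 ± 11.0 to 353 ± 18.6, Camk2b, a subunit of the calcium and calmodulin-dependent kinase, from 405 ± 26.7 to 934 ± 61.3 and Mylk, myosin light chain kinase, by a log2 change of 1.13. Htra1, a secreted serine protease, rose from 427 ± 20.1 to 964 ± 27.1, Spint1, an inhibitor of such proteases, from 31.1 ± 2.94 to 76.3 ± 5.98, and Jam3, a junctional adhesion molecule, from 77.2 ± 8.25 to 156 ± 3.98. The rest of the rises were Ssr1, Cited1, Ifitm10, Clpb, Sptssa and Smpdl3a. Ssr1 was the 1 of these with a log2 change over 1 at P2 (1.18), against 1.09 at P10.

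Among the falls, Pla2g7, the phospholipase that degrades platelet-activating factor, fell from 131 ± 1.54 to 49.5 ± 3.76, and Ssu72, an RNA polymerase phosphatase, from 436 ± 31.7 to 165 ± 7.38. Gldc, glycine decarboxylase, fell from 222 ± 36.0 to 100.3 ± 4.21 at P10 and had a log2 change of 0.22 at 2 months (adjusted p = 0.281). Cacnb2, the beta subunit of the photoreceptor calcium channel, fell from 141 ± 27.7 to 59.4 ± 6.82. Tnfaip3, an inhibitor of NF-kappaB, fell from 74.4 ± 18.1 to 32.9 ± 0.81. Nt5e, the ecto-5′-nucleotidase that also marks rod precursors, fell from 212 ± 47.1 to 103 ± 19.4, and Mbnl1, a splicing regulator, from 179 ± 8.10 to 87.1 ± 10.2. The others were Gas5 and AW549877.

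Probe sets without a single symbol added 55 calls, 29 higher and 26 lower. Of these 7 changed by 2-fold, 6 lower and 1 higher. The largest fall among them, in probe set 96567_at, was from 1985 ± 351 to 73.0 ± 4.92, and the rise, in probe set 102151_at, was from 109 ± 4.37 to 470.0 ± 33.5.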
